A study of Mus musculus with 16 samples.

Results

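The digestive hydrolases of the intestinal brush border were followed here as 9 genes: the disaccharidase genes Sis, Lct and Treh, the exopeptidase genes Anpep, Enpep and Dpp4, the meprin genes Mep1a and Mep1b, and Tmprss15, which encodes enteropeptidase. The genes were chosen by symbol, and each symbol matched 1 of the 48440 genes in the expression table of every segment. RNA came from GFP-positive cells sorted from the epithelium of female Lgr5eGFP mice, in which EGFP is expressed from the Lgr5 locus, a gene of intestinal stem and progenitor cells. All mice, controls included, had eaten a 60% high-fat diet for 16 weeks, had then undergone vertical sleeve gastrectomy (VSG, removal of a large part of the stomach along its greater curvature) or sham surgery, and were studied 4 weeks later, fasted overnight and 15 minutes after an oral liquid meal. The methods give an age range of 8 to 16 weeks for all mouse studies. Cells carrying CD31 or CD45, apoptotic cells and dead cells had been removed in the sort. The 16 libraries came from 7 mice, 5 after VSG and 2 after sham surgery. Duodenum and jejunum were each represented by 4 VSG and 2 sham libraries from the same 6 mice, and ileum by 2 VSG and 2 sham libraries; 3 mice gave all segments. Each library was 1 segment of 1 mouse, and libraries with the same surgery and replicate number came from the same mouse.

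Brush border hydrolases are anchored in the apical membrane of absorptive enterocytes, where they carry out the last step of luminal digestion. Sucrase-isomaltase, lactase and trehalase split dietary sugars into monosaccharides, the peptidases trim peptides to amino acids and di- and tripeptides, and enteropeptidase starts the cascade of pancreatic proteases by activating trypsinogen. Their transcripts accumulate as cells leave the crypt and mature along the villus, and several of them are known to be confined to particular stretches of the small intestine.

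Values are DESeq2-normalized counts, scaled by the authors within each segment, so a level in one segment was set beside another only as a description. Library totals ran from 22.0 to 51.7 M normalized counts (M, 1000000). Lgr5 itself was between 152 and 6565 normalized counts in 14 libraries and was listed at 0 in sham replicate 1 of the jejunum and of the ileum. Of the jejunal libraries, 2 stood apart. Sham replicate 1 held a summed stem cell marker level of 16768 against 49277 to 67574 in the other 5. Its enterocyte marker level was 2323520 against 645577 to 1110280, and its 9 hydrolases together held 1000990 normalized counts against 257003 to 438822. Its library total was also larger, at 47.1 M against 33.5 to 34.5 M. As a share of the total, the 9 hydrolases were 2.13% against 0.749% to 1.27%. VSG replicate 1 of the jejunum held 196951 normalized counts of Fabp6, the ileal bile acid binding protein, while the remaining jejunal libraries held 15.8 to 313 and the ileal ones 29162 to 208801; this mouse gave no ileal library used here. In the duodenum, VSG replicate 1 held the most Lgr5, at 6565, and the smallest hydrolase sum, at 105877 against 244032 to 464450. For the 9 genes and some of the lists, differences between the surgeries are also given without 1 or more of these libraries. In bulk RNA, fewer enterocytes in a sort and less transcript per enterocyte cannot be told apart.

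**Figure D1:**
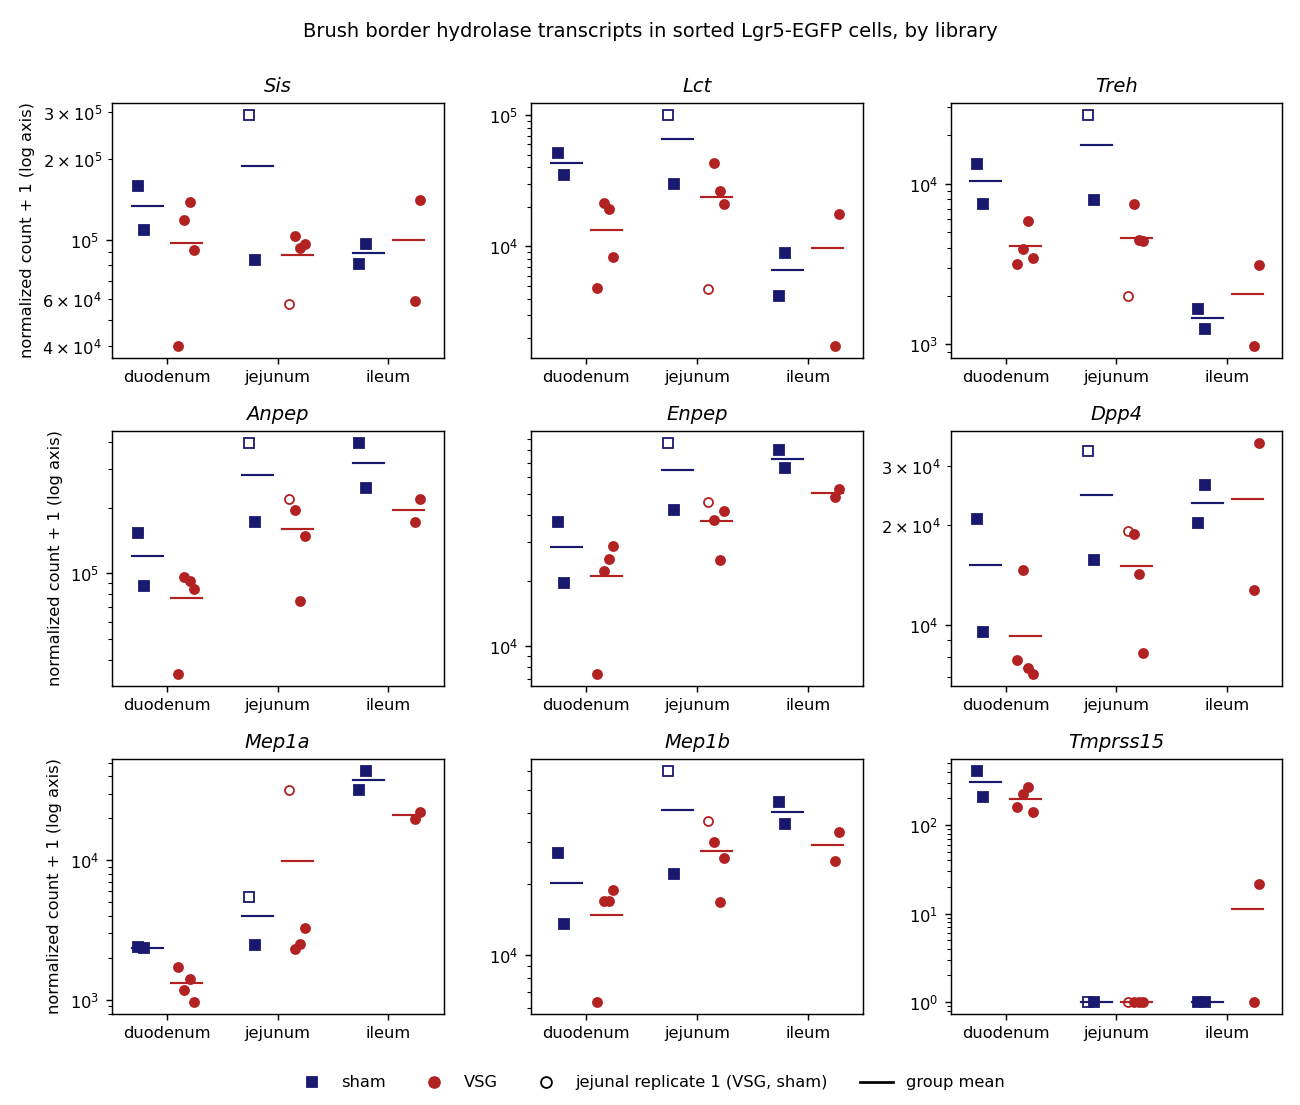
Normalized count plus 1 (log axis, a separate scale per gene) of each hydrolase in every library, by segment (horizontal axis) and surgery (squares sham, circles VSG; open symbols, jejunal replicate 1 of each surgery; bars, group means). Lct and Treh are lowest in the ileum, Mep1a is highest there, and Tmprss15 is at 0 in every jejunal library.

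The members formed 3 patterns along the gut. By mean normalized count, Sis, Lct and Treh were highest in the jejunum, Anpep, Enpep, Dpp4, Mep1a and Mep1b in the ileum, and Tmprss15 in the duodenum. The jejunal place of Sis and Treh rested on sham replicate 1: without it their jejunal means were 86641 and 5256 normalized counts, below the duodenal 109175 and 6188, while Lct, at 25078 against 23379, stayed barely above. Within mice, jejunal Sis was above duodenal Sis in 3 of 6, with a median ratio of 0.960, and Lct and Treh were above in 4 of 6. Ileal levels were above jejunal ones in 3 of 3 mice for Anpep (ratios from 1.00) and Mep1a (from 5.83). They were above in 2 of 3 for Enpep and Dpp4, and in only 1 of 3 for Mep1b. When each library was scaled to the same total, each of these genes was above in 3 of 3 mice. On that scale Sis was highest in the ileum instead, and the other 8 kept their segment. In the sham libraries alone Dpp4 and Mep1b were highest in the jejunum, where their means were 24456 and 41147 normalized counts against 23229 and 40363 in the ileum, a gap far smaller than the spread between the 2 sham mice.

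Levels of different genes were compared per kilobase of the longest annotated transcript and per 1000000 of the library. On that scale Anpep had the highest mean of the 9 genes in every segment, at 945 ± 349 (SD, n = 6) for duodenal, 2671 ± 1029 (SD, n = 6) for jejunal and 5807 ± 1485 (SD, n = 4) for ileal libraries. Sis came next by mean, at 723 ± 259, 997 ± 482 and 1424 ± 667 in the same order of segments. The ranges of Anpep and Sis overlapped in the duodenum and jejunum, but the lowest ileal Anpep value, 3950, lay above the highest ileal Sis value, 2329. Mep1b and Enpep followed by mean in each segment and overlapped with each other and with Sis. Sis lay below both in ileal sham replicate 1, ileal VSG replicate 4 and jejunal VSG replicate 1. Lct and Treh, which overlapped each other in every segment, came after Enpep in the duodenum, at 146 ± 101 and 117 ± 64.1, followed by Dpp4 at 83.0 ± 35.8, and were the lowest detected members besides Tmprss15 in the ileum, at 123 ± 116 and 77.0 ± 49.4. Mep1a moved the other way, from 22.0 ± 6.96 in the duodenum to 870 ± 352 in the ileum. Tmprss15 averaged 2.20 ± 0.79 in the duodenum.

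Among the disaccharidases, Sis encodes the enzyme that splits sucrose and the branch points and ends of starch fragments, Lct encodes lactase, which splits milk sugar, and Treh encodes trehalase, whose substrate comes from fungi and insects. Because these 3 transcripts varied together between libraries of a segment, the 250 bases before each RefSeq start site (build GRCm38.p6) are shown, 5′ to 3′ on the coding strand: chr3:72967864-72968113 for Sis and chr1:128328319-128328568 for Lct, both on the minus strand, and chr9:44672983-44673232 for Treh on the plus strand. Capitals mark TTTAT, the core of the motif bound by the homeobox factor CDX2, and GTTAAT, the core of the HNF1 motif, on either strand, so that ATAAA and ATTAAC are marked too.
Sis: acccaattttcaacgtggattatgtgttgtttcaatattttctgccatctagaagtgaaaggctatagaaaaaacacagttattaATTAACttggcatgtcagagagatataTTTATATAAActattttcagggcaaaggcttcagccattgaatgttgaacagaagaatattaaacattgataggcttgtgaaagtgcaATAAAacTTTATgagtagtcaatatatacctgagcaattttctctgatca
Lct: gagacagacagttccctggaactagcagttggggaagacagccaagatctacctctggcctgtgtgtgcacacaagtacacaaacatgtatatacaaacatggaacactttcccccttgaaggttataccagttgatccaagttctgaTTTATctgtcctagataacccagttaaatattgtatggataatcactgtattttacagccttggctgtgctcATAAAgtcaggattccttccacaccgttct
Treh: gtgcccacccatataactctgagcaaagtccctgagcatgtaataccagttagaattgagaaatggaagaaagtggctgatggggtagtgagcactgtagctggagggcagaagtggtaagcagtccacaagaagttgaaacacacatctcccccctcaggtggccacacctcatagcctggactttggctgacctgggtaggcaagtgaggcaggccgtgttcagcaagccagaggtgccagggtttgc

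The Sis window held 4 matches to TTTAT, the most distant of them at 138 to 134 bases before the start and overlapping by no base with the next at 133 to 129, and 1 match to GTTAAT at 165 to 160. The Lct window held 2 matches to TTTAT, at 102 to 98 and at 30 to 26 bases before the start; the latter lies where TATA-type elements, which have similar letters, usually stand. The Treh window held neither string. Of 32526 distinct upstream windows of the same length in the RefSeq table, 37.2% held TTTAT and 6.47% held GTTAAT, so a match to the first is common. Windows were found for 8 of the 9 members. TTTAT was also present in the windows of Enpep, Dpp4 and Tmprss15 and GTTAAT in that of Tmprss15, while the GATA factor core GATAA, present in 22.5% of all windows, occurred in Lct, Enpep, Dpp4 and Mep1a. These are letter matches, and binding was not measured.

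Sis (chromosome 3, 72888557 to 72967863, minus strand) was abundant everywhere, at 39932 to 158522 normalized counts in duodenal, 57403 to 293169 in jejunal and 58885 to 140706 in ileal libraries. The ranges of the 3 segments overlapped. Within mice, ileal Sis was below duodenal Sis by normalized count in all 3 mice with both segments, with ratios of 0.512 to 0.888, but above it in all 3 when libraries were scaled to the same total, with ratios of 1.06 to 1.89. Its order along the gut therefore depended on the scale.

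Lct (chromosome 1, 128284756 to 128328318, minus strand) had a steep drop at the distal end. Ileal Lct was 3.91 to 12.2 times lower than duodenal Lct in the same mouse and 3.35 to 23.9 times lower than jejunal Lct, in 3 of 3 mice. Scaled to the same total, the ileal to duodenal ratio was 0.169 to 0.545, still below 1 in each mouse. The ileal libraries differed widely among themselves: the values were 1738 and 17639 after VSG and 4223 and 8915 after sham surgery. In the jejunum, VSG replicate 1 held 4734 normalized counts of Lct against 20984 to 100924 in the other 5 libraries, a value inside the ileal range and outside the jejunal one. The same mouse also had the lowest duodenal Lct, 4778 normalized counts.

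Treh (chromosome 9, 44673233 to 44686305, plus strand) had the same form at lower normalized counts, although per kilobase of transcript it overlapped Lct in every segment. Ileal Treh was 3.52 to 7.93 times lower than duodenal and 4.49 to 16.2 times lower than jejunal Treh in the 3 mice with all segments, and scaling to the same total left the ileal to duodenal ratio below 1, at 0.261 to 0.606. Jejunal VSG replicate 1, at 1993 normalized counts, again lay among the ileal values of 976 to 3120 and below the other jejunal libraries, which held 4376 to 26919. Its mouse also had the lowest duodenal Treh, 3168 normalized counts.

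The exopeptidases ran in the opposite direction. Anpep (chromosome 7, 79821803 to 79861059, minus strand) encodes aminopeptidase N, which removes neutral amino acids from peptide ends, and Enpep (chromosome 3, 129269175 to 129332720, minus strand) encodes aminopeptidase A, which removes acidic residues. Ileal Anpep was 2.02 to 2.80 times duodenal Anpep, and ileal Enpep 1.69 to 3.37 times duodenal Enpep, in 3 of 3 mice by normalized count and more so at the same total, with ratios of 4.32 to 5.98 and 3.61 to 7.19. In the ileum Anpep was between the 3rd and the 6th most abundant gene of a library by normalized count. Dpp4 (chromosome 2, 62330073 to 62412231, minus strand) encodes dipeptidyl peptidase 4, which cuts after proline or alanine and also inactivates GLP-1 and GIP. Its jejunal level was 1.15 to 2.43 times its duodenal level in 6 of 6 mice, and its ileal level was 0.975, 1.78 and 2.75 times the duodenal level in the 3 mice. Marker sums also differed between segments. Per 1000000 of the library total, stem cell markers summed to 1870 to 3738 in duodenal and 224 to 956 in ileal libraries. Microvillus structure genes summed to 3649 to 8270 and 12116 to 17939, and enterocyte markers to 9991 to 24696 and 23764 to 43301. The part of cell content in the levels along the gut was not tested.

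The meprins were set apart from each other by position. Mep1a (chromosome 17, 43474324 to 43502812, minus strand) encodes meprin alpha and Mep1b (chromosome 18, 21061923 to 21100199, plus strand) meprin beta, metalloproteases that form homo- and hetero-oligomers. Duodenal Mep1a was 966 to 2383 normalized counts and ileal Mep1a 19916 to 43771, which was 13.4, 18.7 and 20.6 times the duodenal value of the same mouse. Ileal Mep1b was only 1.33 to 2.66 times duodenal Mep1b in those mice. The ratio of Mep1a to Mep1b within a library, which no scaling of the library can move, was 0.051 to 0.273 in the duodenum and 0.663 to 1.21 in the ileum. In the jejunum it was 0.076 to 0.149 in 5 libraries and 0.852 in VSG replicate 1, the library with the ileal level of Fabp6; its 31629 normalized counts of Mep1a compared with 2307 to 5493 in the other jejunal libraries. Without that mouse the jejunal mean of Mep1a was 3212 in place of 7948 normalized counts.

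Tmprss15 (chromosome 16, 78953008 to 79091097, minus strand) was a duodenal transcript. The duodenal libraries held 158, 225, 270 and 141 normalized counts after VSG and 410 and 208 after sham surgery. All 6 jejunal libraries were at 0 and so were 3 of the 4 ileal libraries, with 20.6 in ileal VSG replicate 5. A value of 0 allows up to 4.52 normalized counts in a jejunal and 6.21 in an ileal library, the worth of 3 reads in the shallowest of them, counting error only. The duodenal mean over all 6 libraries, 235 ± 97.5 (SD, n = 6), was 52 times that limit in the jejunum by normalized count. The segments were scaled separately, with library totals of 46.9 to 51.7 M in the duodenum and 33.5 to 47.1 M in the jejunum. This ratio is therefore a description and not a lower bound on a common scale.

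**Figure D2:**
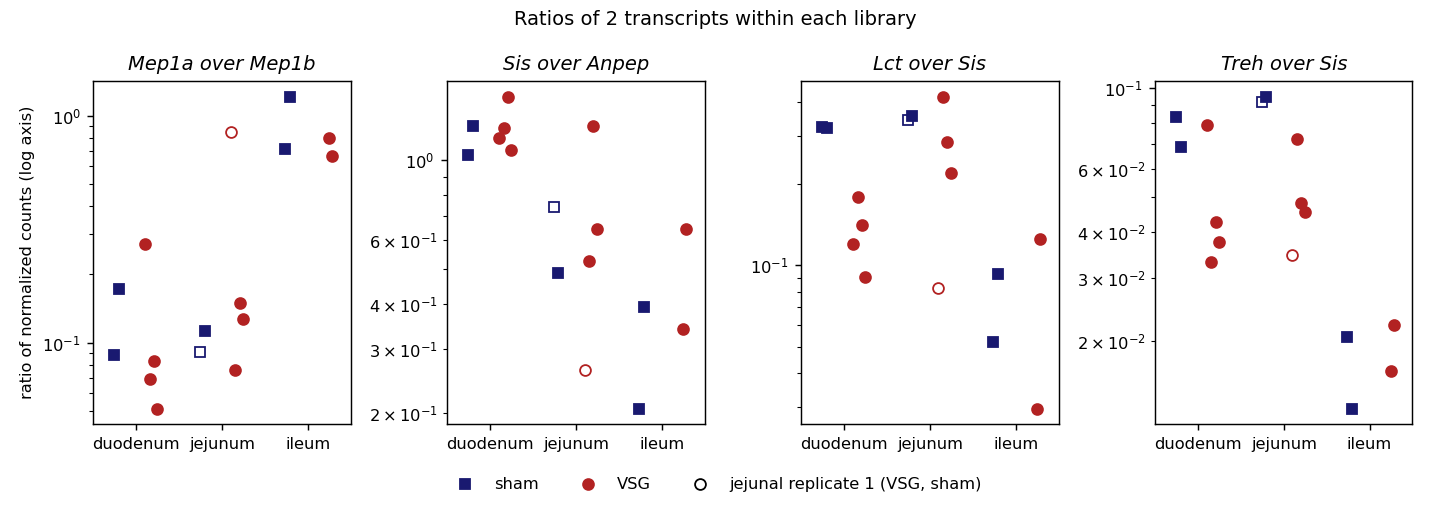
Ratio of the normalized counts of 2 genes within each library (log axis), by segment and surgery (squares sham, circles VSG; open symbols, jejunal replicate 1 of each surgery). Mep1a over Mep1b is 0.663 to 1.21 in the ileum and at most 0.273 in the duodenum, jejunal VSG replicate 1 sits at 0.852, and Lct over Sis in the duodenum is 0.091 to 0.179 after VSG and 0.322 to 0.326 after sham surgery.

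Whether VSG altered the hydrolases was asked within each segment. In the duodenum all 9 members had lower mean log2 values after VSG than after sham surgery, beside 49.3% of all genes tested, with log2 fold changes from -1.91 to -0.49 and a median of -0.67 against 0.01 over all genes. With 1 library left out the median ran from -1.09 without sham replicate 2 to -0.29 without sham replicate 1. In limma, none of the 9 passed the study's 4 thresholds, which 0.0237% of 16867 genes did. These were p under 0.05 and 0.2 after adjustment, a log2 fold change beyond 0.5 in either direction, and a mean of over 50. The study applied them to DESeq2 tests and reported many more altered genes in each segment. The counts at these thresholds given here are thus not the study's own. At an unadjusted p under 0.05 in limma, 3 of the 9 were lower (Lct, Treh and Mep1a), where 3.48% of all genes were, and none was higher. The same 3 genes had every VSG library below both sham libraries, where 8.01% of all genes did. Fold changes are on the scale of log2(normalized count + 1).

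Lct gave the widest separation. The duodenal VSG libraries held 4778, 21298, 19416 and 8287 normalized counts and the sham libraries 51613 and 34881. The highest VSG value was thus well below the lower sham value. The means were 13445 ± 8145 (SD, n = 4) and 43247 ± 11831 (SD, n = 2), and the log2 fold change was -1.91 (SE 0.55). The limma adjusted p was 0.517, and the two-sided exact permutation p of 0.133 was above the smallest that 4 against 2 libraries allow, 0.0667. With any 1 library left out, the log2 fold change stayed between -2.21 and -1.49.

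Duodenal Treh was 3168, 3932, 5894 and 3429 normalized counts after VSG and 13213 and 7490 after sham surgery. The groups did not overlap, with means of 4106 ± 1233 (SD, n = 4) and 10352 ± 4047 (SD, n = 2). The log2 fold change was -1.32 (SE 0.32), with a limma adjusted p of 0.451 and an exact permutation p of 0.0667, the smallest possible. Duodenal Mep1a was 1729, 1172, 1415 and 966 after VSG and 2383 and 2340 after sham surgery, also without overlap. Its log2 fold change was -0.87 (SE 0.33), the limma adjusted p 0.677 and the exact permutation p 0.0667. Without sham replicate 1, none of the 3 genes had an unadjusted p under 0.05, although all 3 still had every VSG library below the remaining sham library, as did 21.6% of all genes. Without sham replicate 2 only Treh had such a p. In both of these fits the VSG libraries alone gave the spread, and the single sham library was assumed to vary like them. Mep1a also lost its p without VSG replicate 4.

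The more abundant duodenal members overlapped between the surgeries. Sis was 39932, 118658, 138293 and 91210 normalized counts after VSG and 158522 and 108434 after sham surgery, so 2 VSG mice lay above the lower sham mouse. Its log2 fold change was -0.58 (SE 0.47). The study picked Sis among its enterocyte genes on the same samples, so its direction is not independent evidence. Anpep (-0.69, SE 0.44), Enpep (-0.54, SE 0.52), Dpp4 (-0.67, SE 0.38), Mep1b (-0.49, SE 0.45) and Tmprss15 (-0.61, SE 0.78) had limma adjusted p-values from 0.860 to 0.912. These log2 fold changes depended on single libraries: with 1 left out they ran from -1.10 to -0.29 for Anpep, -1.01 to -0.08 for Enpep, -1.24 to -0.11 for Dpp4, -0.99 to 0.0075 for Mep1b and -1.09 to -0.12 for Tmprss15, and from -0.85 to -0.20 for Sis. The values nearest 0 came without sham replicate 1, or for Sis without VSG replicate 1, the library with the smallest hydrolase sum. Without VSG replicate 1, Anpep was at -0.34, Enpep at -0.10 and Mep1b at -0.12. Of the 18 enterocyte markers, 16 had a log2 fold change below 0, beside 49.3% of all genes. They include Alpi, Enpp7 and Apoc3, which the study also picked on the same samples. Of the 16, 9 had an unadjusted p under 0.05 in limma, where 3.48% of all genes were lower with such a p. The other 2 were higher, both with such a p. They include Reg3b, the most abundant gene of the list, with means of 174819 after VSG and 52360 after sham surgery (log2 fold change 2.22, SE 0.75). The summed level of the list, Reg3b included, was 474225 to 967396 after VSG and 827181 to 1277910 after sham surgery. Without VSG replicate 1, again 16 markers were below 0, with a median of -0.57 in place of -0.81. The part of enterocyte content in the hydrolase differences was not tested.

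**Figure D3:**
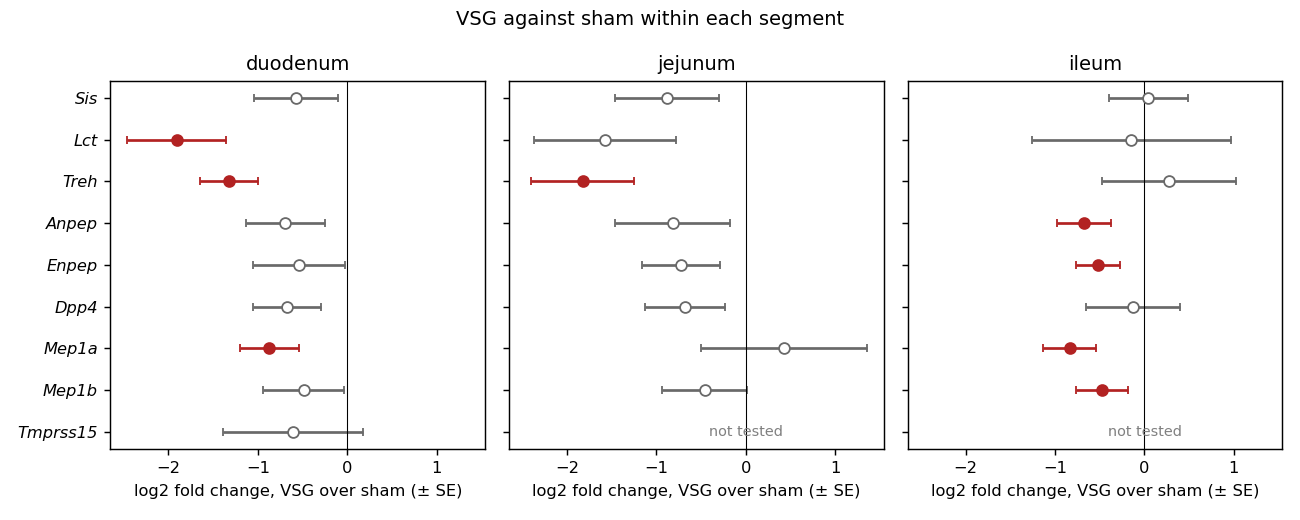
Log2 fold change of VSG over sham for each hydrolase (horizontal axis; bars, standard error of the limma fit) in the duodenum and jejunum (4 VSG and 2 sham libraries) and the ileum (2 and 2). Filled red points mark genes with every VSG library below every sham library: Lct, Treh and Mep1a in the duodenum, Treh in the jejunum, and Anpep, Enpep, Mep1a and Mep1b in the ileum; none of the 9 hydrolases passed the 4 thresholds.

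In the jejunum 7 of the 8 members tested had a log2 fold change below 0, beside 45.0% of all genes, and the median was -0.77 against 0.11 over all genes. The member median was -0.54 with libraries scaled to the same total and -0.37 after quantile normalization, where Sis and Anpep were both at -0.34. None passed the 4 thresholds, which 0.0126% of 15857 genes did. Treh alone had an unadjusted p under 0.05 on the lower side, where 2.40% of all genes did, and alone had all VSG libraries below both sham libraries, where 6.21% did. Jejunal Treh was 1993, 7450, 4485 and 4376 normalized counts after VSG and 26919 and 7976 after sham surgery, so the lower sham mouse was close to the highest VSG mouse. The log2 fold change was -1.83 (SE 0.58), with a limma adjusted p of 0.760 and an exact permutation p of 0.0667.

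The jejunal values turned on the 2 libraries that stood apart. Sis was 57403, 103039, 92842 and 95877 after VSG and 293169 and 84043 after sham surgery, so 3 of the 4 VSG mice lay above sham replicate 2. Its log2 fold change of -0.88 (SE 0.58) became 0.02 without sham replicate 1 and -1.78 without sham replicate 2, where Sis, Enpep and Treh passed the 4 thresholds together with 17.4% of all genes. In that fit the VSG libraries alone gave the spread, and the single sham library was assumed to vary like them. Lct had a log2 fold change of -1.58 (SE 0.80) with all libraries, -0.93 without VSG replicate 1 and -0.05 without VSG replicate 1 and sham replicate 1. Without that pair of libraries the median over the 8 members was -0.16, Treh was at -0.60, Enpep at -0.32, Anpep at -0.41 and Dpp4 at -0.27, and none had an unadjusted p under 0.05. Mep1a, the only member above 0, had a log2 fold change of 0.43 (SE 0.93) with all libraries and -0.46 without VSG replicate 1. Over all genes, scaling libraries to the same total moved the jejunal median log2 fold change by 0.22 and the ileal one by 0.11, and quantile normalization moved the ileal one by -0.20.

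In the ileum, with 2 mice a group and a smallest exact permutation p of 0.333, 6 of the 8 members tested had a log2 fold change below 0, beside 43.0% of all genes. The median was -0.31 against 0.24 over all genes. No gene passed the 4 thresholds (0% of 13853 genes, of which 455 had an unadjusted p under 0.05). Mep1a was the 1 member lower at an unadjusted p under 0.05, where 1.19% of all genes were. Its values were 19916 and 22036 normalized counts after VSG and 32037 and 43771 after sham surgery, and its log2 fold change was -0.84 (SE 0.29, limma adjusted p 0.736). The unadjusted p was no longer under 0.05 when libraries were scaled to the same total or quantile normalized, with genes of a mean above 50 only, in limma without a trend, or without sham replicate 2, VSG replicate 4 or VSG replicate 5. Anpep, Enpep and Mep1b likewise had both VSG libraries below both sham libraries, 4 of 8 members with Mep1a, beside 11.6% of all genes. Ileal Anpep was 172442 and 218670 after VSG and 244630 and 396095 after sham surgery (log2 fold change -0.68, SE 0.30), ileal Enpep had a log2 fold change of -0.52 (SE 0.25) and ileal Mep1b one of -0.48 (SE 0.29). The disaccharidases and Dpp4 did not share this separation. Ileal Dpp4 was 12687 and 35180 normalized counts after VSG and 20274 and 26185 after sham surgery. Sis, Lct, Treh and Dpp4 had log2 fold changes of 0.04, -0.15, 0.27 and -0.13, and for each of them VSG replicate 4 was below and VSG replicate 5 above both sham mice. The ileal enterocyte markers Fabp6 and Slc10a2 also had an unadjusted p under 0.05 on the lower side, and all 6 genes of their list had both VSG libraries below both sham libraries, at a summed 73619 to 122574 against 215331 to 288206. Whether they share a source with the difference in Anpep, Enpep and the meprins was not tested.

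The surgery difference was compared between duodenum and jejunum within the 6 mice that gave both. None of the 8 members tested had an unadjusted p under 0.05 (0.189 to 0.990 in limma on the within-mouse difference, jejunum less duodenum), where 4.10% of 14718 genes did. The jejunal minus duodenal log2 fold change was 0.33 (SE 0.49) for Lct and -0.51 (SE 0.51) for Treh, with standard errors as large as the differences. For Mep1a it was 1.30 (SE 0.91), which includes the jejunal VSG replicate 1 library.

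Ratios of 2 members within a library remove whatever multiplies both alike. The 7 other members expressed in all segments were divided by Anpep, the 6 other than Anpep and Sis by Sis, and Mep1a by Mep1b, giving 42 ratios over the 3 segments. This family was chosen after the values were seen. The groups did not overlap in 7 of the 42. No ratio had an adjusted exact permutation p below 0.958. Over single genes, every VSG library was below every sham library for 8.01% in duodenal, 6.21% in jejunal and 11.6% in ileal libraries. Every VSG library was above for 6.44%, 6.59% and 17.0%. The 7 ratios are therefore given as a description only. Duodenal Lct over Sis was 0.120, 0.179, 0.140 and 0.091 after VSG and 0.326 and 0.322 after sham surgery. The 2 sham mice were nearly equal and all 4 VSG mice lay below them, a log2 difference of -1.33 (exact permutation p 0.0667, 0.958 after Benjamini-Hochberg adjustment over the 42). Duodenal Lct over Anpep was 0.097 to 0.221 after VSG and 0.337 to 0.400 after sham surgery (log2 difference -1.21, exact permutation p 0.133, adjusted 0.958). Jejunal Treh over Sis was 0.035 to 0.072 after VSG and 0.092 to 0.095 after sham surgery, and in this ratio sham replicate 1 did not stand apart (log2 difference -0.94, exact permutation p 0.0667, adjusted 0.958). Mep1b over Anpep was higher after VSG in the duodenum, at 0.176 to 0.222 against 0.155 to 0.176 with a gap in the fourth decimal, and in jejunal libraries, at 0.155 to 0.225 against 0.128 to 0.153 (log2 differences 0.20 and 0.35, exact permutation p 0.2 for both, adjusted 0.958). Of the ileal ratios, Treh over Anpep was higher after VSG, at 0.0057 to 0.0143 against 0.0042 to 0.0051, and Mep1a over Sis lower, at 0.157 to 0.338 against 0.395 to 0.455 (log2 differences 0.95 and -0.88, exact permutation p 0.333 for both, the smallest possible, adjusted 0.958). The disaccharidase ratios were not alike in both proximal segments: duodenal Treh over Sis overlapped, at 0.033 to 0.079 after VSG and 0.069 to 0.083 after sham surgery, and so did jejunal Lct over Sis, at 0.082 to 0.420 and 0.344 to 0.355. Duodenal Sis over Anpep also overlapped between the groups, at 1.07 to 1.50 after VSG and 1.03 to 1.24 after sham surgery. Enpep over Anpep was held within 0.194 to 0.339 over all 16 libraries.

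The rest of the brush border gave the members their setting. Of 15 other brush border hydrolase genes tested in the duodenum, all had a log2 fold change below 0, beside 49.3% of all genes, with a median of -1.36. An unadjusted p under 0.05 was reached by 12 of the 15, where 3.48% of all genes were lower with such a p. The study picked Alpi and Enpp7 of this list on the same samples, so their direction is not independent evidence. Without VSG replicate 1, 14 were below 0 with a median of -1.13. The alkaline phosphatase gene Akp3 passed the 4 thresholds, with a VSG mean of 5110 ± 1883 (SD, n = 4) and a sham mean of 30279 ± 898 (SD, n = 2) normalized counts (log2 fold change -2.64, SE 0.33, limma adjusted p 0.196). The call was lost in 7 of the 14 alternatives (a pseudocount of 0.5, a mean above 50, no filter on the mean, libraries scaled to the same total, the replicate block, and leaving out sham replicate 2 or VSG replicate 4), where the adjusted p was up to 0.801, and the log2 fold change stayed between -2.84 and -2.45. Akp3 resembles its neighbour Alpi (log2 fold change -1.36, SE 0.28), and reads may be shared between them. Mgam, the maltase that works beside Sis, had a log2 fold change of -0.61 (SE 0.50). Ace, the peptidase that also forms angiotensin II, had one of -1.34 (SE 0.39). In the jejunum all 15 tested were below 0, beside 45.0% of all genes, with a median of -1.50. An unadjusted p under 0.05 was reached by 6, where 2.40% of all genes were lower with such a p. Without sham replicate 1, 11 of the 15 were below 0 with a median of -0.51, and without VSG replicate 1 as well, 13 with a median of -0.40; 1 had an unadjusted p under 0.05 in each of these fits. In the ileum 11 of 16 were below 0, beside 43.0% of all genes, with a median of -0.14. Naaladl1, a peptidase of the ileal brush border, had a VSG mean of 55022 ± 3642 (SD, n = 2) normalized counts. Its sham mean was 103807 ± 16765 (SD, n = 2), and its log2 fold change -0.91 (SE 0.25, limma adjusted p 0.736).

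Transporters of the digestion products had log2 fold changes below 0 for 11 of 11 genes in duodenal, 10 of 11 in jejunal and 6 of 11 in ileal libraries, of which 4, 3 and 2 had an unadjusted p under 0.05. Over all genes tested, 49.3%, 45.0% and 43.0% were below 0, and 3.48%, 2.40% and 1.19% were lower with such a p. Slc5a1, the sodium-glucose transporter that takes up what Sis and Lct release, had log2 fold changes of -0.76 (SE 0.47), -0.72 (SE 0.53) and -0.09 (SE 0.38) in the same order. The peptide transporter gene Slc15a1 was at -1.51 (SE 0.53, limma adjusted p 0.760) in the jejunum, at -0.58 without sham replicate 1 and at -0.34 without VSG replicate 1 as well. Without that pair 9 of the 11 jejunal transporter genes were below 0, Slc5a1 was at 0.32, and 5 of 14 microvillus genes were below 0. Without duodenal VSG replicate 1, 11 of 11 duodenal transporter genes and 12 of 14 microvillus genes were below 0. Their medians were then -0.49 and -0.23, in place of -0.73 and -0.44. Microvillus structure genes were below 0 in 13 of 14, 13 of 14 and 12 of 14, with 3, 0 and 2 at an unadjusted p under 0.05; Vil1, the actin bundler villin, was at -0.56 (SE 0.37), -0.53 (SE 0.48) and 0.01 (SE 0.34). Of 16 transcription factor genes known to act on enterocyte genes, 12 were below 0 in duodenal and 10 in jejunal libraries. All genes gave 49.3% and 45.0%. In ileal libraries 6 of the 15 tested were below 0, close to the 43.0% of all genes. The factor genes with an unadjusted p under 0.05 were Ppara in the duodenum and Hnf4g, Ppara and Creb3l3 in the jejunum. Hnf4a had log2 fold changes of 0.34 (SE 0.24), 0.37 (SE 0.33) and -0.13 (SE 0.28).

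Hydrolase and cell type transcripts were correlated across libraries. After each segment was centred on its mean, the summed level of the 9 members correlated over the 16 libraries with the enterocyte markers (Pearson r = 0.90), the microvillus genes (0.96) and the other hydrolases (0.95), and inversely with the stem cell (-0.79) and proliferation (-0.76) markers. These are descriptions over libraries that share mice and depth. They include jejunal sham replicate 1, with the largest jejunal hydrolase sum, and duodenal VSG replicate 1, with the smallest duodenal one. No correlation without these libraries is given. Stem cell markers had log2 fold changes above 0 in 8 of 10, 10 of 10 and 8 of 9 genes from duodenum to ileum, goblet markers in 8 of 8, 8 of 8 and 7 of 8, and tuft markers in 7 of 7, 8 of 8 and 6 of 7. Over all genes tested, 49.3%, 45.0% and 43.0% were below 0 in the same order. Without duodenal VSG replicate 1, the duodenal counts above 0 were 6 of 10 for stem cell, 8 of 8 for goblet and 7 of 7 for tuft markers. Without jejunal VSG replicate 1 and sham replicate 1, the jejunal counts above 0 were 3 of 10 for stem cell, 8 of 8 for goblet and 3 of 8 for tuft markers. In the duodenum the tuft markers summed to 15556 to 35740 after VSG and 4848 to 12598 after sham surgery, the goblet markers to 116403 to 302959 and 99465 to 175038, the immune markers to 530 to 2941 and 306 to 355, and the pancreatic acinar markers to 2035 to 13998 and 2393 to 2544. The part of these cell types in the hydrolase differences was not tested.

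**Figure D4:**
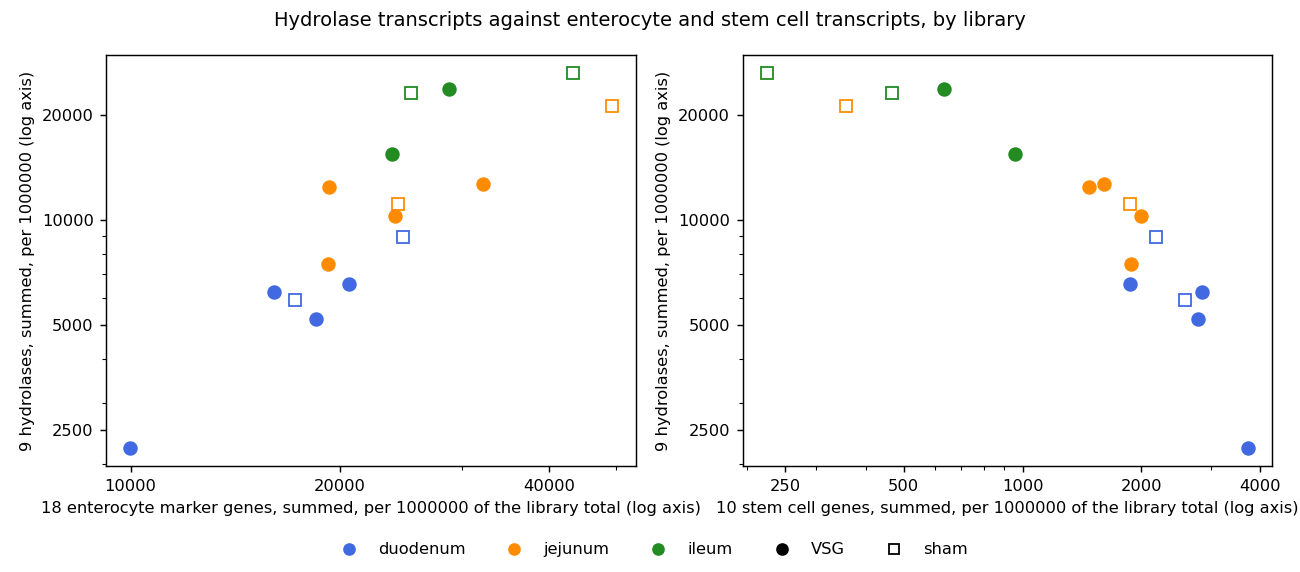
Summed level of the 9 hydrolases per 1000000 of the library total (vertical axis, log scale) against the summed level of 18 enterocyte markers (left) and 10 stem cell genes (right), both on log axes; each point is 1 library, coloured by segment, filled for VSG and open for sham. Duodenal VSG replicate 1 lies lowest for hydrolases and highest for stem cell genes, and jejunal sham replicate 1 lies beyond the ileal libraries for enterocyte markers, at 49328 against 23764 to 43301 per 1000000, and among them for stem cell genes.

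Among themselves the members fell into groups. Over the 28 pairs of the 8 members expressed in every segment, the correlation of centred log2 values over the 16 libraries ran from -0.26 to 0.96 with a median of 0.57. Anpep, Enpep and Mep1b were the closest, at 0.93 to 0.96, and Sis, Lct and Treh formed the other group, at 0.84 to 0.88. Mep1a correlated at -0.26 to 0.33 with the other members. Of 10712 genes with a mean above 50 in every segment, those most like Sis included Slc5a1 (r = 0.98) and the cholesterol transporter gene Npc1l1 (0.96). The gene most like Anpep, Enpep and Mep1b was in each case Krt20, a keratin of mature villus cells (0.96, 0.96 and 0.98). Treh was most like Cyp4v3 (0.98), Rdh7 (0.97) and Cda (0.96), and Lct most like Fmo5 (0.92), Rdh7 (0.92) and the peptidase gene Mme (0.92). Dpp4 was closest to Atxn1 (0.86), Dgat2 (0.85) and Apob (0.83). Mep1a was closest to Phgr1 (0.88), Slc51a (0.86), which encodes a subunit of the basolateral bile acid exporter of the ileum, and Nudt4 (0.85), a likeness that includes the single jejunal library with ileal Fabp6.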

How the data were processed

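Polyadenylated RNA of sorted GFP-positive cells was sequenced by the authors as single-end reads, aligned with STAR 2.5.3a to mm10 and quantified with Salmon 0.6.0. The deposited signal is a normalized count per gene, made by the authors with DESeq2 size factors within each segment, in 3 tables of 48440 genes; libraries they excluded for low mapping were not used here. Tables of the authors' own comparisons (fold changes, p-values) were not used. Most values could not be returned to whole reads, so no count model was run.

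Groups came from the sample labels. VSG was compared with sham in each segment with limma 3.58.1 (R 4.3.3, trended empirical Bayes) on log2(normalized count + 1), for genes whose mean exceeded 10, with Benjamini-Hochberg adjustment over all genes tested; single genes also had a two-sided exact permutation test of mean log2 values. The difference between segments was fitted on per-mouse values. The fit was tested on simulated data. P-values measure the spread between mice. Implied depth was 10.9 to 63.6 M reads a library (M, 1000000), and intervals from it cover counting error only. The members and gene lists were chosen with earlier results of these data known. From each list the 3 most abundant genes of a segment and any called gene are named, plus the 3 genes most like each member, of which 1 is not reported here; genes named for an unadjusted p were chosen after their values were seen. Sequences came from RefSeq (GRCm38.p6), coordinates and transcript lengths from GENCODE M21 (GRCm38). Alternatives covered the pseudocount, the filter, the scaling, the fit without trend, a replicate block and each library left out.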

Additional observations from a re-analysis of the deposited data

Results flagged for a closer look

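In 4 of the 17 groups of 4 VSG libraries examined for the 9 genes, 1 library stood far from the other 3 by Dixon's criterion, which flags about 1 group in 20 by chance. Duodenal VSG replicate 1 was low for Anpep, at 34539 normalized counts against 85160 to 96351, and for Mep1b, at 6335 against 16960 to 18895. The same library held the highest stem cell marker sum of the duodenum, 177442 against 87624 to 134565 in the other 5 libraries. Duodenal VSG replicate 2 was high for Dpp4, at 14646 normalized counts against 7117 to 7846, and without it Dpp4 joined the genes with every duodenal VSG library below both sham libraries. Jejunal VSG replicate 1 was high for Mep1a, at 31629 against 2307 to 3277. Groups of 2 were not examined.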

How the results depend on the processing

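With an unadjusted p under 0.05 alone, 3 duodenal, 1 jejunal and 1 ileal members were called, against 0 at the 4 thresholds; by the same rule, in either direction, 1057 of 16867, 957 of 15857 and 455 of 13853 genes were. With 1 library left out, the jejunal count ran from 0 to 3, and the ileal member median from -0.77 to 0.17. By sham libraries alone 5 members were highest in the jejunum and 3 in the ileum; by medians 2 were highest in the duodenum; without jejunal sham replicate 1, an alternative chosen after seeing the data, 3 were highest in the duodenum and 1 in the jejunum. Ileal Dpp4 was at 0.017 under quantile normalization. Leaving out 1 library, or in the jejunum also VSG replicate 1 and sham replicate 1 together, changed the sign of some log2 fold changes that were not called: duodenal Mep1b (-0.99 to 0.0075), jejunal Sis (-1.78 to 0.21), Mep1a (-0.46 to 1.00) and Mep1b (-1.19 to 0.27), ileal Sis (-0.59 to 0.67), Lct (-1.82 to 1.52), Treh (-0.57 to 1.11) and Dpp4 (-0.86 to 0.61), and the jejunal minus duodenal difference of Sis (-0.93 to 0.32), Lct (-0.27 to 0.93), Anpep (-0.66 to 0.33), Enpep (-0.74 to 0.15), Dpp4 (-0.20 to 0.16) and Mep1b (-0.50 to 0.35). The cause was not tested. The fit without that pair was chosen after seeing the data.

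Equal replicate numbers of the 2 surgeries name different mice, and their deviations from the group means correlated at -0.05 to 0.05. With the replicate block, which only 2 pairs allow, 0 members were called; the duodenal member median was -0.93 and the jejunal one -0.43. Of Lct, Treh and Mep1a only Treh, in the duodenum, kept an unadjusted p under 0.05, and no jejunal member did. With 2 sham mice in each segment the number of mice limits the precision; depth bears on Tmprss15, whose values of 0 allow up to 6.21 normalized counts.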
